A study of Mus musculus with 17 samples.

Results

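The contrast described here is that of BMP4 against LDN in FOXA2-negative cells, after equal times of exposure. Its members are the 6 libraries, of 17 in the series, whose titles name BMP4 or LDN together with the FOXA2-negative fraction, 3 for each agent. The cells derive from R1, a mouse embryonic stem cell line, with Venus fluorescence reporting FOXA2, the forkhead factor that marks the floor plate. The series title places them in work on floor plate formation in neural tube organoids. All 6 libraries came from cells that had 18 hours of retinoic acid, then 6 hours without treatment, then 8 hours of either BMP4 or LDN. The name LDN is shared by small molecules that inhibit BMP type I receptor kinases, and the labels do not spell out the compound. The contrast therefore sets added ligand against LDN, and no group had the same schedule with neither agent. FOXA2-negative cells with 18 hours of retinoic acid alone (the RA group, 3 libraries) and FOXA2-positive cells of both agents (3 BMP4 and 2 LDN libraries) are used beside them. For RA the labels give the 18 hours only, so treatment and time of collection cannot be told apart in any comparison with it. All groups share 1 reporter line, and nothing says whether it was 1 clone.

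BMP4 is a secreted ligand that binds paired type I and type II receptor kinases. The type I receptor phosphorylates SMAD1, SMAD5 and SMAD9, which enter the nucleus with SMAD4 and bind DNA at target genes. Known direct targets include the ID genes, the Msx and Dlx homeobox genes, and genes such as Smad6, Smad7 and Bambi whose products dampen the pathway. In the embryo BMPs are made by surface ectoderm and the dorsal midline of the neural tube. There they favour epidermal and dorsal neural fates, and the floor plate lies at the opposite, ventral side.

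Each of the 6 libraries had 8435845 to 10339457 reads counted in genes, spread over 16990 to 17683 genes. Mitochondrial genes took 4.28 ± 0.69% of counts after BMP4 and 4.26 ± 0.41% after LDN (SD, n = 3 each; two-sided exact permutation p = 1, where 0.1 is the smallest this design allows). Of 13 mitochondrially encoded genes in the gene list, 6 had 0 counts in all 6 libraries, among them mt-Co2 and mt-Co3. The mitochondrial share therefore leaves out their RNA, and why they had no counts was not tested. Levels are given as TMM-scaled CPM, the read count of a gene after scaling for library depth and composition. Foxa2 was low in these fractions, at 1.75, 0.108 and 0.472 CPM in the BMP4 libraries 1 to 3 and 2.93, 2.62 and 0 CPM in the LDN libraries, against 22.6 to 27.5 CPM in FOXA2-positive BMP4 cells. Along the first principal component of the 6 libraries (28.8% of the variance) BMP4 libraries lay between 7.84 and 17.5 and LDN libraries between -15.6 and -10.7. BMP4 library 3 stood apart on the second component (23.5%), at -23.2 against -5.25 to 14.96 for the other libraries. Without it 20 of the 35 genes called between BMP4 and LDN kept their call, and 15 did not.

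Of 17813 genes tested, 35 (0.196%) differed at an adjusted p under 0.05 in edgeR's quasi-likelihood test with Benjamini-Hochberg adjustment, the rule by which a gene is called here. After BMP4, 22 genes (0.124%) were higher and 13 (0.073%) lower than after LDN. The higher genes were led by the ID genes, with homeobox, T-box, GATA and AP-2 transcription factors and pathway inhibitors among them. Lower after BMP4 were the glucose transporters Slc2a1 and Slc2a3, the neural factor Sox1, and Stra6, a receptor for retinol uptake. In all 35 the libraries of the agents did not overlap, which a call from these same libraries favours. Over all genes tested 5.32% did not overlap with BMP4 higher and 5.93% with BMP4 lower. The higher genes had log2 fold changes from 1.01 to 5.66 with a median of 2.62, and the median over all genes tested was 0. In bulk libraries such as these, more cells with a gene on and more RNA per cell cannot be told apart. The count rose to 53 when both RA libraries numbered 1 were left out of the shared model, of which 34 were among the 35. In those RA libraries mitochondrial genes took 6.94 and 7.43% of counts, and the part of this in the count was not tested. It was 117 with DESeq2 and 141 without a filter on low counts, and both held all 35.

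**Figure D1:**
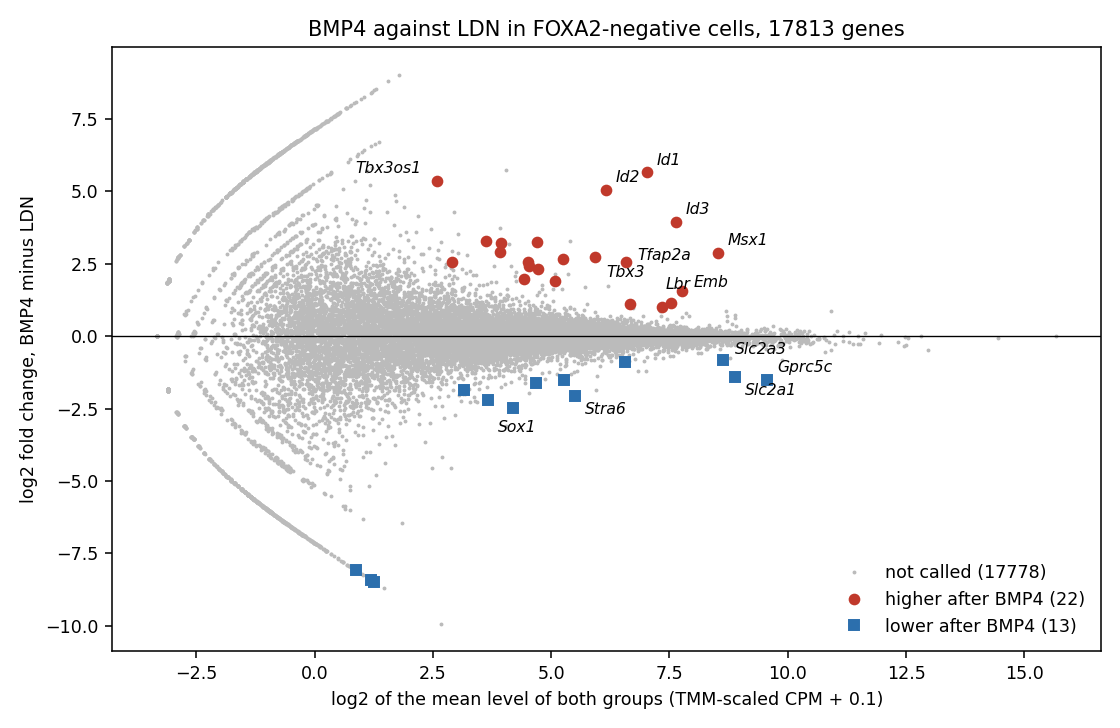
Each of the 17813 tested genes is plotted by its mean level over both groups (horizontal axis, log2 of TMM-scaled CPM plus 0.1) and its log2 fold change, BMP4 minus LDN (vertical axis). Red circles mark the 22 genes called higher after BMP4 and blue squares the 13 called lower; the 3 squares at the bottom of the plot are genes with 0 counts in all BMP4 libraries.

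ID proteins lack a DNA-binding domain and hold basic helix-loop-helix partners, including proneural factors, off DNA. Of the 4 ID genes, 3 were called higher after BMP4 than after LDN, each by over an order of magnitude. Among all genes tested 0.124% were called higher. Id1 (ENSMUSG00000042745; mm10 chromosome 2, 152736251 to 152737410, plus strand) stood at 282, 243 and 244 CPM in the BMP4 libraries and at 6.71, 3.98 and 4.51 CPM in the LDN libraries. All BMP4 libraries were far above all LDN libraries, a log2 fold change of 5.66 ± 0.35 (SE; 50.6-fold, adjusted p = 4.92e-10). Id2 (chromosome 12, 25093799 to 25097140, minus strand) stood at 148, 146 and 121 CPM against 3.25, 3.59 and 5.69 CPM, a log2 fold change of 5.04 ± 0.27 (adjusted p = 1.76e-12). Id3 (chromosome 4, 136143497 to 136145755, plus strand) stood at 431, 273 and 424 CPM against 30.0, 21.8 and 20.7 CPM. BMP4 library 2 was the lowest of its group for Id3 and still at 273 CPM, and the log2 fold change was 3.96 ± 0.20 (adjusted p = 8.91e-13). Id4 was near the floor of the assay, at 3.49, 0.753 and 1.04 CPM after BMP4 and 0, 0.486 and 0 CPM after LDN, and was not called (adjusted p = 0.808). The summed level of the 4 genes was 663 to 865 CPM after BMP4, 200 to 235 CPM in RA and 29.8 to 39.9 CPM after LDN, 3 ranges that did not overlap. Id1, Id2 and Id3 kept their calls under every alternative model run.

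Smad7, Bambi and Smad6 act back on the pathway: the inhibitory SMADs block the receptors and the signal SMADs, and BAMBI is a pseudoreceptor without a kinase domain. Smad7 rose from 2.10, 2.43 and 4.22 CPM in the LDN libraries to 21.3, 33.4 and 27.9 CPM in the BMP4 libraries (log2 fold change 3.23 ± 0.47, adjusted p = 0.000544). Bambi rose from 2.83, 1.36 and 2.55 to 13.96, 14.4 and 37.9 CPM, with BMP4 library 3 well above the others (3.29 ± 0.61, adjusted p = 0.0098). Its call was lost without BMP4 library 3 (adjusted p = 0.124), LDN library 2 (0.0935) or LDN library 3 (0.0555), and with the replicate number as a block (0.0604), while the log2 fold change stayed between 2.66 and 3.55 over all alternatives. Smad6 was separated, at 11.2, 8.82 and 11.5 against 1.36, 1.55 and 1.96 CPM, but was not called (2.68 ± 0.69, adjusted p = 0.15). Of the 8 inhibitory SMAD and feedback genes 2 were called higher and none lower, with a median log2 fold change of 1.34. In that list 4 were separated with BMP4 higher and 1 with BMP4 lower. Among all genes tested 0.124% were called higher, 5.32% separated and higher, and 5.93% separated and lower. Genes of the list that were not called went both ways. Smurf2, a ubiquitin ligase of SMADs and their receptors, had 14.2, 9.78 and 14.4 CPM after BMP4 and 31.2, 19.6 and 23.3 CPM after LDN (-0.95, adjusted p = 0.565).

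The parts of the pathway upstream of these genes gave no call. None of 13 tested BMP antagonists, 9 ligands, 11 receptors and co-receptors, or 10 signal SMADs and nuclear partners passed the threshold. Their median log2 fold changes were 0.57, -0.23, 0.03 and 0.12. Of the antagonists 4 were separated with BMP4 higher and 2 lower, of the receptors 2 and 3, and of the signal SMADs 2 and 1. No ligand was separated, and the shares among all genes tested were 5.32% and 5.93%. The antagonists summed to 111 to 119 CPM after BMP4 and 88.6 to 99.6 CPM after LDN. Signal SMADs and partners summed to 781 to 933 against 592 to 677 CPM. Among the antagonists, secreted proteins that bind BMPs, Nog was separated at 6.40, 6.99 and 11.2 CPM after BMP4 against 1.57, 0 and 1.86 CPM after LDN (2.83 ± 0.98, adjusted p = 0.511). Bmper had 1.16, 5.16 and 2.64 CPM after BMP4 and 0 counts in every LDN library, and was not called (adjusted p = 0.355). Smad9, a signal SMAD, had 6.40, 7.96 and 9.43 CPM against 0, 1.94 and 0 CPM (3.58 ± 1.48, adjusted p = 0.671). These 3 genes lie at levels where the standard errors reached 0.98 or more on the log2 scale, so the interval around each difference is wide. Smad1 (0.24 ± 0.28) and the receptor genes Bmpr1a (0.73 ± 0.27) and Bmpr2 (0.27 ± 0.27) were not called either. The RNA of Bmp4 itself was at 2.21 to 3.49 CPM after BMP4 and at 2.41, 17.4 and 3.63 CPM after LDN, groups that overlapped.

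Transcription factors known to be induced by BMP were the other large group among the higher genes: 6 of 15 tested were called higher, none lower, and 11 were separated with BMP4 higher. Their median log2 fold change was 2.57. Among all genes tested 0.124% were called higher and 5.32% were separated with BMP4 higher. Msx1 (chromosome 5, 37820485 to 37824583, minus strand), a homeobox factor of the dorsal neural tube, stood at 604, 410 and 931 CPM after BMP4 and at 83.8, 112 and 68.5 CPM after LDN. The groups were far apart, although the BMP4 libraries spread over a wide range (2.88 ± 0.32, adjusted p = 0.000293). Msx2, its close relative, was at 23.4, 26.9 and 29.4 against 3.46, 3.98 and 3.24 CPM (2.90 ± 0.44, adjusted p = 0.00104). Tbx3 (chromosome 5, 119670669 to 119684724, plus strand), a T-box repressor, was at 97.9, 119 and 98.6 against 15.8, 19.7 and 12.0 CPM (2.73 ± 0.24, adjusted p = 6.97e-08). Reads of Tbx3 and of its antisense neighbour Tbx3os1, which was called too (5.37 ± 0.91), cannot be told apart here where the genes overlap. The strand setting of the counting is not given in the sources used here. Tbx3os1 lost its call with the replicate number as a block (adjusted p = 0.0826).

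Gata3, a zinc-finger factor of surface ectoderm, was at 31.3, 48.1 and 52.4 CPM after BMP4 and 7.76, 9.71 and 8.63 CPM after LDN (2.33 ± 0.35, adjusted p = 0.000836). Gata2 was at 55.4, 54.5 and 60.4 against 15.3, 6.31 and 33.7 CPM. Its LDN libraries differed widely among themselves, and it was not called (1.62 ± 0.56, adjusted p = 0.552). Dlx5, a distal-less homeobox factor, rose from 3.77, 6.61 and 11.2 to 38.9, 34.3 and 43.3 CPM (2.43 ± 0.47, adjusted p = 0.0178). Its call was lost without BMP4 library 1 (adjusted p = 0.0546), BMP4 library 3 (0.0837), LDN library 1 (0.136) or LDN library 2 (0.114). Cdx2, a caudal homeobox factor of posterior cells and trophoblast, was at 60.3, 10.3 and 46.2 against 5.03, 7.77 and 6.77 CPM (2.57 ± 0.42, adjusted p = 0.00242). BMP4 library 2 was thus close to the LDN libraries, and the call was lost in a model of the 2 groups alone (adjusted p = 0.107) and with the replicate number as a block (0.467). Hand1, Dlx6 and Tbx2 were separated with BMP4 higher and not called. Hand1 was at 23.0, 36.4 and 37.0 CPM after BMP4 and 0, 1.75 and 0 CPM after LDN (5.74 ± 1.73, adjusted p = 0.493). Hes1, a Notch effector that BMP can also induce, did not separate, at 189, 158 and 99.4 against 115, 187 and 122 CPM (0.08 ± 0.21).

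Outside that list, Tfap2a, the AP-2 factor of surface ectoderm and neural crest, rose from 20.4, 34.1 and 27.6 to 156, 161 and 173 CPM (2.58 ± 0.40, adjusted p = 0.00401). Pax3, a paired-box factor of the dorsal neural tube, rose from 2.31, 2.62 and 1.47 to 12.0, 7.85 and 18.1 CPM (2.56 ± 0.47, adjusted p = 0.0098). The Pax3 call was lost without BMP4 library 3 (adjusted p = 0.0908), without LDN library 3 (0.0866) and in models of the compared groups with or without a block (0.522 and 0.182). Tfap2a kept its call in every alternative run.

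**Figure D2:**
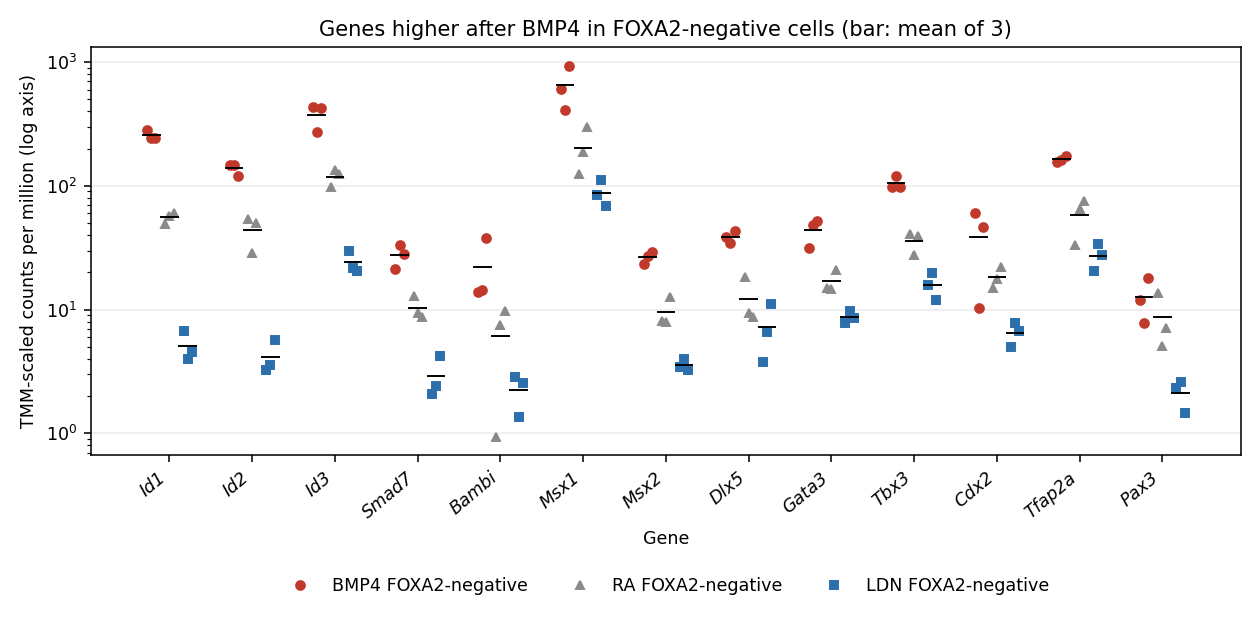
Levels of 13 genes called higher after BMP4 in the FOXA2-negative libraries of BMP4 (red circles), RA (grey triangles) and LDN (blue squares), on a log axis of TMM-scaled CPM, with a bar at the mean of 3 libraries. No BMP4 library overlaps an LDN library for any of the 13 genes, and the RA mean lies between the other means for each.

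Other genes called higher are not usual readouts of BMP. Unc5b, a netrin receptor of axon guidance, was at 80.6, 52.3 and 62.7 CPM after BMP4 and 6.81, 12.5 and 11.6 CPM after LDN (2.66 ± 0.32, adjusted p = 1.82e-05). Coch, which encodes the secreted protein cochlin, was at 53.6, 41.0 and 46.2 against 3.88, 7.38 and 3.33 CPM (3.27 ± 0.48, adjusted p = 0.000544). Both were separated by a wide margin and kept their calls in every alternative run. Emb, which encodes the membrane glycoprotein embigin, was at 348, 227 and 397 against 110, 114 and 104 CPM (1.56 ± 0.17, adjusted p = 5.72e-06). Lbr, the lamin B receptor of the inner nuclear membrane, was at 251, 241 and 272 against 122, 113 and 111 CPM (1.14 ± 0.14, adjusted p = 4.27e-05). For Lbr the spread within a group was small, so a difference of 2.21-fold was called. Gpc3, a cell-surface glypican that can bind growth factors, was at 119, 138 and 156 against 71.2, 65.7 and 54.6 CPM and lay just inside the threshold (1.11 ± 0.24, adjusted p = 0.05 after rounding). Its call was lost without any 1 of the 6 libraries, with adjusted p from 0.0646 to 0.244, and with RLE scaling (0.0524).

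RefSeq start-site sequences were found for 14 of the 22 higher and 8 of the 13 lower genes. Id1, Tbx3, Smad7, Bambi, Dlx5 and Pax3 were among the higher genes without one, so the shares below leave them out. The 250 bases before each start were searched on both strands for GGCGCC, a palindromic GC-rich letter pattern bound by signal SMADs, and for CAGAC, the SMAD box, whose reverse complement is GTCTG; the patterns do not overlap each other. GGCGCC stood in the window of 4 of the 14 higher genes (28.6%: Coch, Gata3, Id2 and Tbx3os1), in none of the 8 lower genes, and in 19.2% of the 11878 tested genes with a sequence. CAGAC stood in 5 of 14 (35.7%: Cdx2, Emb, Id3, Lbr and Rusc1), in 3 of 8 (37.5%: Frat2, Slc2a1 and Stra6), and in 45.9% of the tested genes. Over all 32851 start sites in the table, where a gene may have several, the shares were 9.59% and 42.2%. These shares were not tested against each other. Among the windows with a match, those of Gata3, Tbx3os1, Emb and Id3 lie wholly in annotated exons (250 bases each), and that of Tbx3os1 lies within Tbx3. A match is a description of the letters and says nothing of binding. Printed 5′ to 3′ on the gene's strand with matches in capitals, 4 windows were chosen from genes that kept their calls in every alternative, where no base of the window falls in an exon of the GENCODE M21 annotation (GRCm38.p6), so that windows with and without a match can be compared. They are those of Coch (chr12:51593091-51593340, plus strand, 2 GGCGCC matches), Lbr (chr1:181842402-181842651, minus strand, 1 CAGAC match), and Msx1 (chr5:37824586-37824835) and Unc5b (chr10:60831582-60831831), both on the minus strand and with no match.
Coch: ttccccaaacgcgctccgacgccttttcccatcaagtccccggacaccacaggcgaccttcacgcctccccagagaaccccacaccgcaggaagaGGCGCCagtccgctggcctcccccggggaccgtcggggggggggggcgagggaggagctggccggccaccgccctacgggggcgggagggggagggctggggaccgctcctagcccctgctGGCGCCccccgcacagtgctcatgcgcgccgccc
Lbr: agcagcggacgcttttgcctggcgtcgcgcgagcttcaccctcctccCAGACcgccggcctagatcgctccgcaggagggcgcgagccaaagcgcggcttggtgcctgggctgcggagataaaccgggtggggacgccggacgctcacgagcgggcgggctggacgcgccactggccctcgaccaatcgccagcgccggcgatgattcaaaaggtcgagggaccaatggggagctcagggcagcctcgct
Msx1: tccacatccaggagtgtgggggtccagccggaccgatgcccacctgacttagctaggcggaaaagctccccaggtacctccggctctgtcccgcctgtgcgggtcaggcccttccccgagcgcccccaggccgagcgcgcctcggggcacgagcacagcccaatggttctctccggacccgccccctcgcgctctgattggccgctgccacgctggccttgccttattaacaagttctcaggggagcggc
Unc5b: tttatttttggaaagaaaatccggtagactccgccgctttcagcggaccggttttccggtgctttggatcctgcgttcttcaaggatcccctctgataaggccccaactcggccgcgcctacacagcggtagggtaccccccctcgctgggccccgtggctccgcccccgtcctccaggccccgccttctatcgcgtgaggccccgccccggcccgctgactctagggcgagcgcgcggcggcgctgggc

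Genes lower after BMP4 included both main glucose carriers of early embryonic cells. Slc2a1 (chromosome 4, 119108711 to 119137983, plus strand), the basal glucose transporter, was at 247, 230 and 295 CPM after BMP4 and 672, 742 and 653 CPM after LDN. It fell by 1.42 ± 0.13 on the log2 scale (SE, adjusted p = 1.92e-07), 2.68-fold higher after LDN. Slc2a3, a high-affinity transporter, was at 282, 270 and 312 against 469, 523 and 527 CPM (-0.81 ± 0.14, adjusted p = 0.00327). Genes of glycolytic enzymes were not called. Of 15 glycolysis and hypoxia genes the 2 transporter genes were called, and the list's median log2 fold change was -0.06. In that list 4 were separated with BMP4 lower, both transporters among them, and 1 with BMP4 higher. The shares among all genes tested were 5.93% and 5.32%. The list's summed level was 3319 to 4209 CPM after BMP4 and 4435 to 4793 CPM after LDN. Gapdh (-0.06 ± 0.14), Pkm (0.00 ± 0.12) and Hk2 (0.01 ± 0.23) overlapped between the agents, and Ldha had 234, 188 and 271 CPM after BMP4 against 171, 158 and 165 CPM after LDN (0.49 ± 0.17, adjusted p = 0.499).

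Among genes of retinoid handling, Stra6 was at 18.5, 10.3 and 23.1 CPM after BMP4 and 67.6, 82.7 and 68.4 CPM after LDN (-2.07 ± 0.32, adjusted p = 0.00116). It was the only call among 15 tested retinoic acid response genes, whose median was 0.09. Gprc5c, an orphan receptor of a retinoic acid-inducible family, was at 493, 344 and 338 against 1158, 1191 and 1028 CPM (-1.52 ± 0.16, adjusted p = 1.85e-06). The retinoic acid receptor gene Rarb (-0.14 ± 0.45) and the binding-protein gene Crabp2 (0.09 ± 0.18) overlapped between agents. Stra8, another retinoic acid-induced gene, was at 889, 817 and 510 against 824, 706 and 742 CPM (-0.04 ± 0.16). Of 15 Hox genes of paralogue groups 1 to 5, which retinoic acid induces in the hindbrain, none was called, and the median was 0.34. In that list 5 were separated with BMP4 higher and none with BMP4 lower, against 5.32% and 5.93% of all genes tested.

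Sox1, a SOXB1 factor of neural progenitors, was at 5.58, 6.77 and 4.06 CPM after BMP4 and 23.0, 39.1 and 30.7 CPM after LDN (-2.50 ± 0.41, 5.65-fold higher after LDN, adjusted p = 0.00253). It was the only call among 15 neural progenitor genes. In the list 7 genes were separated and lower after BMP4 and none separated and higher, with a median log2 fold change of -0.86. Over all genes tested 5.93% were separated and lower, and 5.32% separated and higher. Sox2 was at 63.5, 55.3 and 45.7 against 110, 98.9 and 89.9 CPM (-0.86 ± 0.20, adjusted p = 0.0687). Pax6, a factor of dorsal and intermediate progenitors, was at 28.7, 24.9 and 21.2 against 45.9, 58.3 and 40.2 CPM (-0.95 ± 0.24, adjusted p = 0.137). Both missed the threshold in edgeR and were among 16 further list members called by DESeq2. Nes and Cdh2 overlapped between the agents. The list's summed level was 437 to 545 CPM after BMP4, 483 to 543 CPM in RA and 715 to 796 CPM after LDN.

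None of 14 tested Notch pathway genes was called, 5 were separated and lower after BMP4, and their median was -0.84. The share separated and lower over all genes tested was 5.93%. Notch1 was at 11.5, 10.9 and 12.1 against 37.7, 34.5 and 23.1 CPM (-1.47 ± 0.37, adjusted p = 0.137). Its target Hes5, a repressor that maintains progenitors, was at 11.9, 2.80 and 21.6 against 42.3, 48.3 and 26.0 CPM (-1.68 ± 0.69, adjusted p = 0.693), and the ligand gene Dll1 at 1.16, 0.860 and 3.96 against 4.30, 7.09 and 15.2 CPM. All 3 were separated and none was called. Sp5, a Wnt-induced repressor, was at 5.35, 2.47 and 3.68 against 13.0, 15.4 and 12.8 CPM (-1.84 ± 0.38, adjusted p = 0.0335), the only call among 14 Wnt targets, whose median was -0.10. The call of Sp5 was lost without BMP4 library 2 (adjusted p = 0.222) or 3 (0.145) and without LDN library 1 (0.0667), 2 (0.118) or 3 (0.063), in a model of the 2 groups alone (0.318) and with the block (0.627). Dkk1, a secreted Wnt inhibitor, lay just outside the threshold in the other direction, at 13.5, 12.9 and 16.98 against 0.105, 2.04 and 0 CPM (4.30 ± 0.92, adjusted p = 0.0535).

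Of the remaining lower genes, Gap43, a growth-cone protein gene, was at 71.1, 60.4 and 66.1 against 123, 103 and 144 CPM (-0.91 ± 0.18, adjusted p = 0.0288). F2rl1, a protease-activated receptor gene, was at 12.8, 13.8 and 10.8 against 47.9, 31.2 and 36.4 CPM (-1.63 ± 0.34, adjusted p = 0.0371). Frat2, whose protein binds the kinase GSK3 in Wnt signalling, was at 4.77, 6.24 and 2.55 against 13.0, 23.1 and 26.3 CPM (-2.20 ± 0.43, adjusted p = 0.0188), and Upk3bl, a uroplakin-like gene, differed by -1.53 ± 0.32 (adjusted p = 0.0415). The calls of Slc2a1, Gprc5c, Stra6, Sox1 and Slc2a3 held in every alternative run, and these 4 did not. With single libraries left out, the call of Gap43 held only without LDN library 2 (highest adjusted p over all alternatives 0.199), that of F2rl1 only without LDN library 2 (0.189) and that of Upk3bl only without LDN library 3 (0.259). Frat2 lost its call without BMP4 library 1 (adjusted p = 0.0862) or 3 (0.145) and without LDN library 2 (0.0773) or 3 (0.104). It also lost it in a model of the 2 groups alone (0.149) and with the block (0.379). Klhdc7a, a kelch-domain gene, and G0s2, an inhibitor of triglyceride breakdown, had 0 counts in all 3 BMP4 libraries and were chosen for mention after their values were seen. Klhdc7a was at 5.03, 8.06 and 0.098 CPM after LDN, at least 41.7-fold higher, and G0s2 at 2.93, 5.63 and 1.76 CPM, at least 32.9-fold higher, against a floor of 3 counts over the BMP4 group. LDN library 3 was close to the BMP4 level for Klhdc7a, and each call was lost without 4 of the 6 libraries, all 3 of BMP4 and LDN library 2 (highest adjusted p 0.124 for Klhdc7a and 0.131 for G0s2 among them). G0s2 also lost it in a model of the 2 groups alone (0.311) and with the block (0.709).

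**Figure D3:**
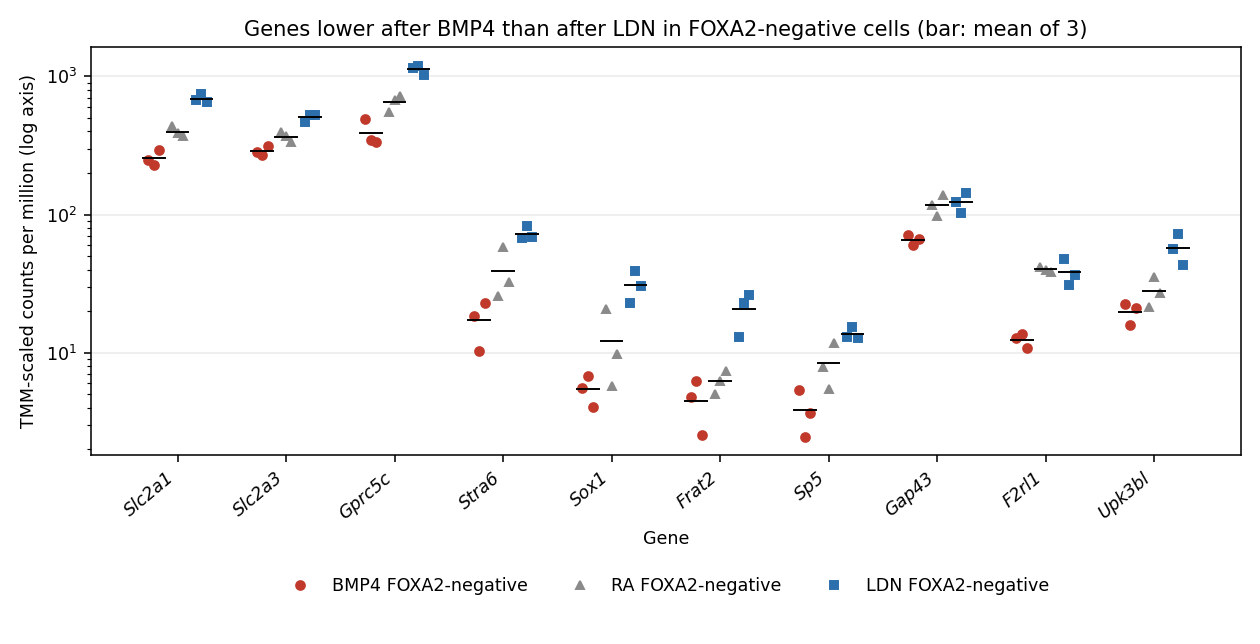
Levels of 10 genes called lower after BMP4 in the FOXA2-negative libraries of BMP4 (red circles), RA (grey triangles) and LDN (blue squares), on a log axis of TMM-scaled CPM, with a bar at the mean of 3 libraries. BMP4 and LDN libraries do not overlap for any gene, and for F2rl1 and Gap43 the RA libraries lie above all BMP4 libraries, within or near the range of LDN.

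Lists that mark cell identity held few called genes. Of 16 surface ectoderm genes Tfap2a was the only call, and 9 were separated the other way, lower after BMP4, against 5.93% of all genes tested. The simple epithelial keratin Krt8 was at 92.6, 64.6 and 49.99 CPM after BMP4 and 148, 154 and 177 CPM after LDN (-1.21 ± 0.27, adjusted p = 0.0535). Krt7 was at 9.77, 13.98 and 8.30 against 31.0, 33.3 and 32.9 CPM (-1.60 ± 0.41, adjusted p = 0.15), whereas Krt19 was at 24.4, 15.5 and 16.7 against 5.45, 5.83 and 9.61 CPM (1.43 ± 0.36, adjusted p = 0.132). These 3 keratin genes were separated in both directions. None was called by edgeR, DESeq2 called all 3, and edgeR without a filter on low counts called Krt8 and Krt19. The median of the list was -0.46, its summed level was 926 to 955 CPM after BMP4 and 1093 to 1222 CPM after LDN, and Krt14 was at 0 in all 6 libraries. In the dorsal neural tube list Pax3 was the only call of 14, with a median of -0.29. Lhx2 (2.95 ± 0.81, adjusted p = 0.221) was separated and higher after BMP4, Lmx1b (-1.67 ± 0.59, adjusted p = 0.547) and Zic2 (-1.09 ± 0.41, adjusted p = 0.57) were separated and lower.

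Genes of the ventral neural tube and floor plate gave no call of 10 tested, with a median of -0.99 at low levels: their summed level was 21.0 to 39.6 CPM after BMP4 and 24.5 to 37.3 CPM after LDN. Shh, the floor plate signal, was at 0 in all 6 libraries. None of 13 tested Hedgehog pathway genes was called, and their median was 0.18. Neural crest, early neuron, germline and endoderm lists gave no call, with medians of -0.42, -0.16, -0.04 and 0.22. Among 16 pluripotency genes Tbx3 was the only call. Pou5f1 was at 39.9, 62.5 and 54.2 CPM after BMP4 and 58.6, 54.1 and 79.5 CPM after LDN, and Nanog at 9.66, 35.1 and 20.1 against 10.3, 5.15 and 12.3 CPM, so markers of undifferentiated cells were present after both agents. Of 7 tested trophoblast genes Cdx2 was the only call. Their summed level was 158 to 212 CPM after BMP4 against 64.3 to 84.0 CPM after LDN, and Tpbpa, Prl3d1 and Psg16 were at 0 in all 6 libraries. The list of the 2-cell-like state, which holds the Zscan4 genes, had no call of 12 and a median of 1.38. Its summed level was 176 to 356 CPM after BMP4 and 14.3 to 204 CPM after LDN, where library 1 was high and the others low. Reads without a unique alignment were among the summary lines left out of the gene counts. Levels of the near-identical Zscan4 copies may therefore be too low, by an amount that is not known. The part of these cells in the results above was not tested. S phase genes and G2 and M phase genes had medians of -0.01 and -0.03 and no call.

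**Figure D4:**
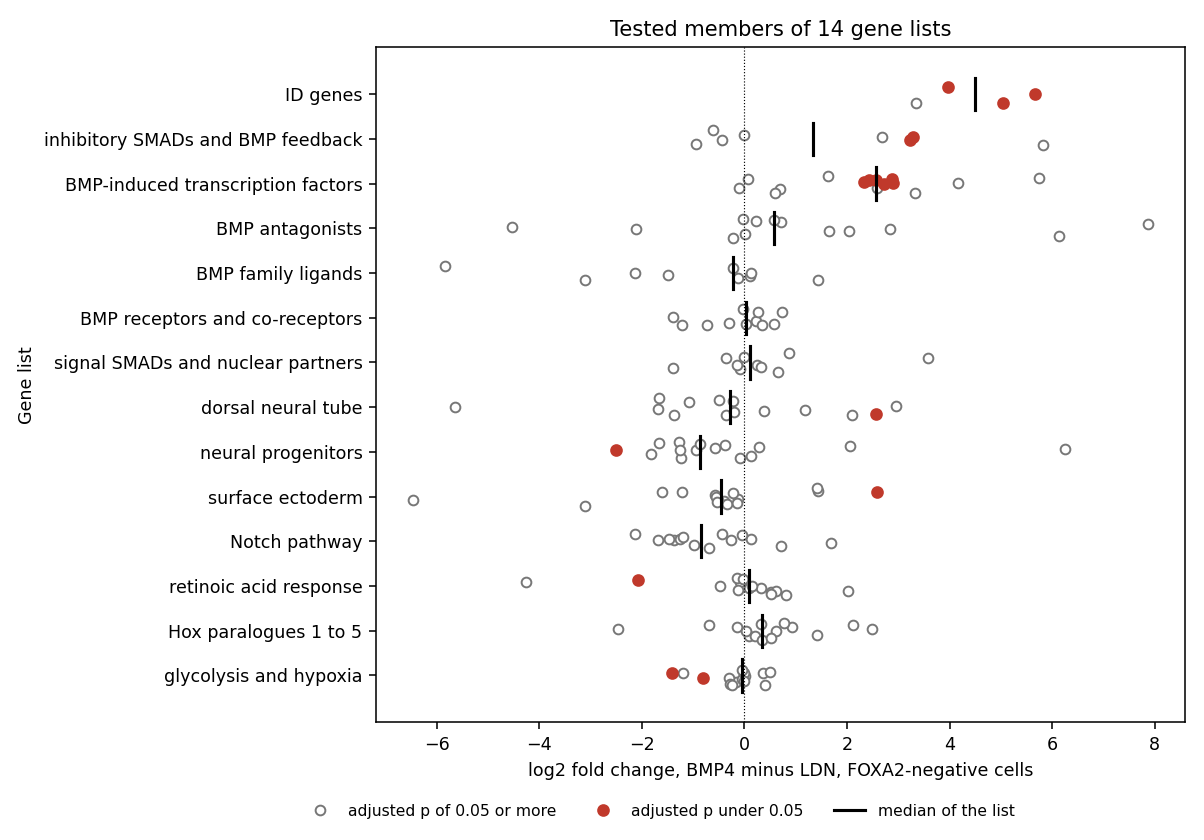
Log2 fold change, BMP4 minus LDN, of each tested member of 14 gene lists in FOXA2-negative cells; filled red circles passed the threshold, open circles did not, and the black bar is the list's median. The ID genes and the BMP-induced transcription factors lie mostly to the right with medians of 4.503 and 2.57, and ligands, receptors and signal SMADs are spread around 0.

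The same contrast in FOXA2-positive cells had 57 calls (0.32%), 42 with BMP4 higher (0.236%) and 15 lower (0.0842%). That count was 32 without LDN library 2 and 37 without LDN library 3, and 95 when the 2 groups were fitted alone. All 22 genes higher in FOXA2-negative cells had positive log2 fold changes there, and 14 were called. Of the 13 lower genes 12 were negative there, and 4 were called: Slc2a1 (-1.58 ± 0.14), Gprc5c (-1.08 ± 0.17), Frat2 (-2.93 ± 0.46) and Gap43 (-0.99 ± 0.20). A call in 1 fraction alone does not show a difference between them, so the difference of the contrasts was tested. That test took the libraries of the 2 fractions as independent, though they may stem from shared cultures. In it 6 genes passed (0.0337%), each with the smaller or more negative change in FOXA2-negative cells. Their number was 3 without BMP4 library 1 or 2 or LDN library 3 of the FOXA2-negative fraction or BMP4 library 2 of the FOXA2-positive fraction. Tbx3 kept its call with each of the 11 libraries left out, while Msx2 lost it without FOXA2-positive LDN library 2 (adjusted p = 0.0721). The differences between fractions for Id1 (0.82 ± 0.45), Id2 (0.59 ± 0.36) and Id3 (0.63 ± 0.26) were not called (adjusted p = 0.819, 0.863 and 0.779), which does not show that the fractions respond alike. Slc2a3 had -0.81 ± 0.14 in FOXA2-negative and -0.06 ± 0.15 in FOXA2-positive cells, a difference that was not called (-0.76 ± 0.21, adjusted p = 0.519).

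Tbx3 rose in both fractions. It went from 5.02 and 4.45 CPM after LDN to 163, 220 and 125 CPM after BMP4 in FOXA2-positive cells, a log2 fold change of 5.16 ± 0.32 against 2.73 ± 0.24 in FOXA2-negative cells. The difference was -2.43 ± 0.36 (adjusted p = 0.00438), and FOXA2-negative LDN cells held more of the RNA (12.0 to 19.7 CPM) than FOXA2-positive LDN cells. Msx2 differed in the same way, with 0 counts in both FOXA2-positive LDN libraries and 3.24 to 3.98 CPM in the FOXA2-negative ones. Its levels after BMP4 overlapped, at 24.1 to 27.4 CPM in FOXA2-positive and 23.4 to 29.4 CPM in FOXA2-negative libraries, and the contrast was at least 164-fold in FOXA2-positive cells. Krt18 and the AP-2 factor gene Tfap2c had log2 fold changes of opposite sign in the fractions. Krt18 was at 150, 176 and 173 CPM after BMP4 and 219, 224 and 286 CPM after LDN in FOXA2-negative cells (-0.55 ± 0.17, adjusted p = 0.36), and was called higher after BMP4 in FOXA2-positive cells (0.88 ± 0.19, adjusted p = 0.0414). Tfap2c had -0.53 ± 0.24 in FOXA2-negative and 1.75 ± 0.30 in FOXA2-positive cells. Urgcp, a gene of cell growth, had 1.27 ± 0.47 against 6.00 ± 0.78, where the FOXA2-positive LDN libraries held 4 counts in all (0.379 and 0 CPM). Its difference between fractions was -8.81 without FOXA2-positive LDN library 2 and -3.88 without library 3. The call was lost with 9 of 11 single libraries left out, with RLE scaling (adjusted p = 0.0522), with the compared groups alone (0.0799) and with the replicate block (0.251), with a highest adjusted p of 0.259 over all alternatives.

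**Figure D5:**
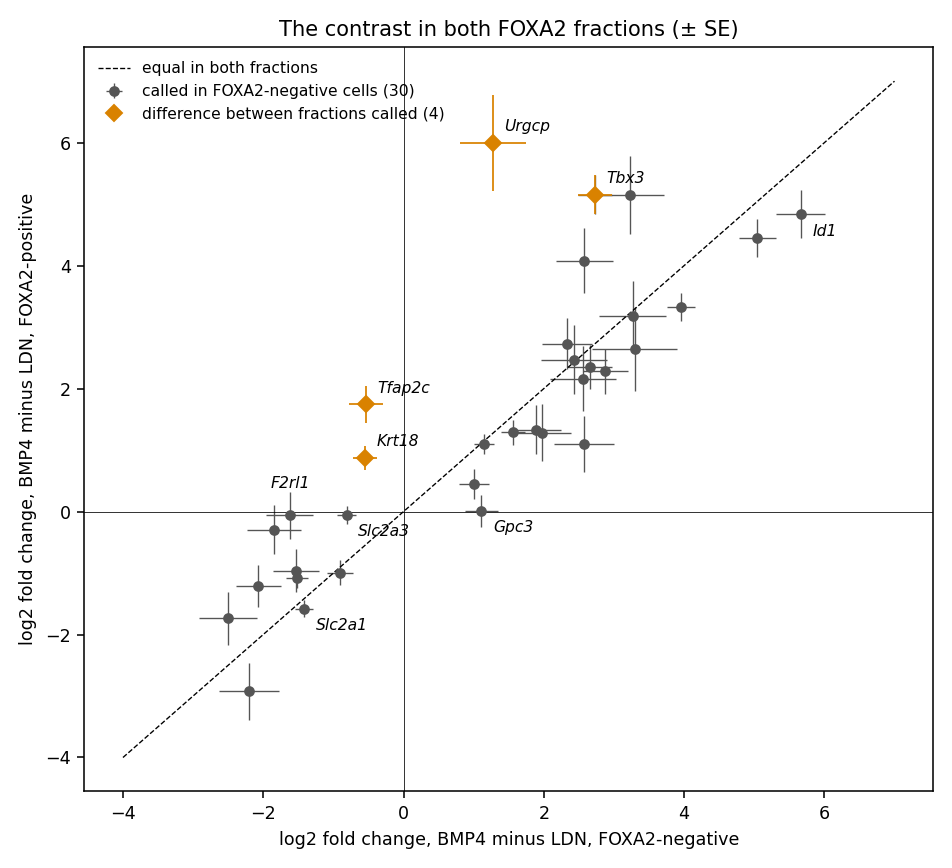
Log2 fold change, BMP4 minus LDN, in FOXA2-negative cells (horizontal axis) and FOXA2-positive cells (vertical axis), with bars of ± 1 SE, for 30 of the 35 called genes (grey; 5 genes at 0 in a whole group are left out) and for 4 genes whose contrast differed between fractions (orange; Tbx3 is among both). Tbx3, Tfap2c, Krt18 and Urgcp lie above the dashed line of equal change. The difference for Gpc3, at 1.11 in FOXA2-negative and 0.01 in FOXA2-positive cells, was not called (1.10 ± 0.35, adjusted p = 0.725).

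RA levels were set beside those of the agents. For all 22 higher genes the RA mean lay between the BMP4 and the LDN mean. It did so for 10 of the 13 lower genes, the exceptions being Klhdc7a, G0s2 and F2rl1. These genes were called for a gap between BMP4 and LDN, which favours an RA mean between them. The share over all genes tested was not computed. Against RA, BMP4 gave 14 calls (0.0786%), 10 higher (0.0561%) and 4 lower (0.0225%). LDN gave 7 calls (0.0393%), 2 higher (0.0112%) and 5 lower (0.0281%), and both comparisons share the RA libraries. Id1, at 48.9, 57.1 and 60.7 CPM in RA, was called higher after BMP4 (2.20 ± 0.29, adjusted p = 0.000498) and lower after LDN (-3.46 ± 0.32, adjusted p = 1.49e-06). Id2 and Id3 were likewise called in both comparisons, and Tbx3, Emb, Unc5b and Lbr were called higher after BMP4. Slc2a1, at 437, 391 and 368 CPM in RA, was called higher after LDN (adjusted p = 0.00767) and not lower after BMP4 (adjusted p = 0.0533). The count for BMP4 against RA fell to between 5 and 9 without any 1 of its 6 libraries. That for LDN against RA was 11 without LDN library 1 and 4 without RA library 3.

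Of the 35 genes called between BMP4 and LDN, 20 kept the call with each of the 6 libraries left out in turn, and none changed direction under any alternative. The 15 that did not each lost it with at least 2 different libraries left out. With the 2 groups fitted alone 32 genes were called, 25 of them among the 35. The p-values of the main model rest on the spread within all 6 groups, 17 libraries in all. Whether the 3 libraries of an agent stem from different cultures is not stated, so that spread may be technical.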

How the data were processed

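RNA of FOXA2-negative and FOXA2-positive mouse cells was sequenced by SMART-Seq v2, per the labels' protocols. The deposited values are raw read counts per Ensembl gene, 1 table a library. Per the submitters' processing notes, HTSeq 0.11.2, cutadapt 1.18, UMI-tools 1.0.0 and DESeq2 1.26.0 were among the tools and mm10 was the build. Aligner, annotation and strand setting were not given in the sources used here. The table holds 49671 genes, and 5 summary lines (49.3 to 54.0% of the counts in the 6 libraries of the contrast) were left out. Coordinates are from GENCODE M21 (GRCm38).

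One edgeR 4.0.16 quasi-likelihood model (R 4.3.3) with a mean for each of 6 groups was fitted to 17 libraries, with TMM scaling and filterByExpr (minimum count 10, minimum total 15), so all groups share 1 estimate of the spread (11 residual degrees of freedom). FOXA2-positive LDN had 2 libraries. P-values were adjusted by Benjamini-Hochberg over 17813 genes for each of 4 comparisons and 1 difference of contrasts, with a threshold of 0.05. The SE is the log2 fold change divided by the root of the F statistic. The code was tested on simulated data. No 2 replicate libraries held the same values, and each was counted as 1 sample.

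Named genes had an adjusted p under 0.05, at least 5 CPM on average and no overlap between the groups. From these came up to 15 of the largest changes in each direction, the 10 smallest p and up to 10 for the difference of contrasts. Predicted genes were left out, 1 gene of the difference of contrasts is not reported here, and members of 41 gene lists could be named. The members and lists were chosen with earlier results of these data known. Alternatives were DESeq2 1.42.0, RLE scaling, other filters, the compared groups alone, a replicate block and each library left out. Models that dropped the genes of chromosomes 6, 8 and Y, or both RA libraries with the number 1, were added after seeing the data.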

Additional observations from a re-analysis of the deposited data

Results flagged for a closer look

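The contrast of BMP4 with LDN differed between FOXA2-negative and FOXA2-positive cells for the following genes, by the test of that difference in edgeR. Each value is the log2 fold change in FOXA2-negative cells minus that in FOXA2-positive cells. It was -2.43 ± 0.36 for Tbx3 (adjusted p = 0.00438) and -8.10 ± 1.19 for Msx2 (adjusted p = 0.00438), whose size is no bound because FOXA2-positive LDN libraries held 0 counts. For Tfap2c it was -2.28 ± 0.38 (adjusted p = 0.013), and the call was lost with 6 of 11 single libraries left out. Krt18 had -1.42 ± 0.26 (adjusted p = 0.0324) and Urgcp -4.73 ± 0.89 (adjusted p = 0.049), and each lost its call with 9 of 11 libraries left out.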

How the results depend on the processing

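The count of genes called between BMP4 and LDN in FOXA2-negative cells, 35, was 117 with DESeq2, 141 without a filter on low counts, 53 without both RA libraries numbered 1, and 25 to 36 with 1 library left out. The FOXA2-positive count of 57 was 174 with DESeq2, 196 without a filter, 95 with the 2 groups fitted alone, and 32 to 55 with 1 library left out. The count for the difference between fractions, 6, was 34 with DESeq2, 54 without a filter, and 3 to 7 with 1 library left out. BMP4 against RA, 14, gave 60 with DESeq2, 94 without a filter, 3 with the groups alone, 9 with a replicate block, 9 without both RA libraries numbered 1, and 5 to 9 with 1 library left out. LDN against RA, 7, gave 39 with DESeq2, 83 without a filter, 4 with the groups alone, 4 with the block, and 4 to 11 with 1 library left out. The cause was not tested. No value reversed. RLE scaling and the stricter filter moved no count by over 1.5 times. Same-numbered BMP4 and LDN libraries did not deviate together (correlations of -0.00218, -0.127 and -0.0176 over 6669 genes), and the numbers were not taken as a pairing. Same-numbered libraries of the 2 fractions correlated at 0.0508, 0.0793 and 0.0769 (BMP4) and 0.0566 and 0.0615 (LDN), above every pair with different numbers and under the limit of 0.1. With 2 FOXA2-positive LDN libraries the deviations are equal and opposite, so the LDN correlations are not independent of each other. The test of the difference between fractions took their libraries as independent. The replicate block used the number across agents, and a block for each agent and number was not fitted. RA libraries 1 to 3 correlated with the same-numbered libraries of BMP4 at 0.283, 0.00211 and 0.1 and of LDN at 0.116, -0.0165 and 0.00429. RA library 1 was thus above that limit with both agents. RA library 2 and BMP4 library 3, of different numbers, reached 0.213. The RA comparisons were kept without a block. For BMP4 against LDN, with the replicate number as a block, 25 genes were called, 20 of them among the 35. For BMP4 against RA 9 were called with it, 5 of them among the 14.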

Other observations

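Genes outside the BMP pathway lay just outside the threshold with groups that did not overlap. Ccnd2, which encodes cyclin D2 of G1 progression, was at 559, 487 and 525 CPM after BMP4 and 260, 452 and 252 CPM after LDN (log2 fold change 0.70 ± 0.16, adjusted p = 0.0721). Mest, an imprinted gene expressed from the paternal copy, was at 693, 493 and 577 against 304, 431 and 320 CPM (0.74 ± 0.17, adjusted p = 0.0601). For both genes LDN library 2 was the closest to the BMP4 libraries. DESeq2 called both, and so did edgeR without a filter on low counts. Of 16 tested imprinted genes none was called by edgeR, 5 were separated with BMP4 higher and 3 with BMP4 lower, and the median was 0.34. Of 14 genes of cadherins and junctions none was called, 5 were separated with BMP4 lower and 1 with BMP4 higher, and the median was -0.35. Over all genes tested 5.32% were separated with BMP4 higher and 5.93% with BMP4 lower.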
